A study of Homo sapiens with 6 samples.

Results

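Accessible chromatin was examined at 10 human genes that carry costimulatory, checkpoint and adhesion signals between antigen-presenting cells and T cells: CD40, CD80, CD86, CD70, CD27, CD274, PDCD1LG2, SLAMF1, ICAM1 and CD58. Every peak that overlapped the hg19 body of one of these genes or the 10 kb on either side was taken, which gave 58 of the 56447 regions found genome-wide. The peaks came from 6 bulk ATAC-seq libraries of GM12878, an established lymphoblastoid line made by transforming human B cells with Epstein-Barr virus. In all 6 libraries the cells were fixed with 1% formaldehyde (paraformaldehyde in the labels), transposed with Tn5 for 30 min and incubated overnight at 65 °C with proteinase K to reverse the crosslinks. The libraries formed 3 groups of 2 replicates. In the old buffer group the reversal buffer contained SDS and the DNA was purified before PCR. In the new buffer group SDS was absent and the DNA was purified, and in the new buffer without purification group PCR followed directly in the same mixture. The authors' methods list further differences. The buffers also differed in salt and in other detergents. The unpurified workflow had its own lysis buffer, an EDTA quench and a spin after which the supernatant was discarded. The question behind the 3 groups was whether the new buffer gives libraries like those of the old one. The labels do not say whether the 2 replicates of a protocol came from separate cultures, so their spread may be technical.

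A T cell that meets antigen needs a second signal, delivered when receptors such as CD28 bind CD80 and CD86 on the presenting cell, and the signal is damped when CTLA-4 takes the same ligands or when PD-1 binds its own. CD40 and the CD70-CD27 pair belong to the TNF ligand and receptor families and signal in both directions between lymphocytes, while ICAM1, CD58 and SLAMF1 hold the contact together. Activated and virus-transformed B cells are known to carry several of these molecules at their surface. ATAC-seq reads pile up where Tn5 can reach the DNA, so a peak marks an accessible site and not the expression of the gene beside it.

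The lists held between 30136 peaks (new buffer replicate 2) and 38023 peaks (new buffer replicate 1). Library depth was only known in relative terms, from the lowest local background of each list, which lay between 1.51 reads in new buffer replicate 2 and 1.86 reads in the second unpurified library. The strength of a site is given here as the reads at the peak summit, which do not depend on the length of the peak, and as the −log10 q value of the peak. A site that a library did not call fell short of the q value of 0.01 used by the authors and may still be open. Among promoters of B cell marker genes, MS4A1, which encodes CD20, and EBF1, a B lineage transcription factor, had a peak in all 6 libraries with means of 46.7 and 42.5 summit reads. Another 5 of the 8 B cell markers had one in 1 to 5 libraries, among them PAX5 in 1, and BLK had none. Of 8 T cell markers, CD247, BCL11B and CD8A had a promoter peak in all 6 libraries, at means of 21.0, 20.5 and 18.7 reads, and CD3D, CD3E, CD3G, CD5 and LCK had none in any library. Of 6 myeloid markers, CEBPA was called in all 6 at a mean of 14.8 reads and CD14 in 4, and none of the 4 erythroid or 4 epithelial markers had a promoter peak.

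The 58 regions comprised 15 at promoters, defined as within 1 kb of the start of a protein-coding transcript of the gene, 42 distal regions and 1 at the promoter of TAPBPL, which lies in the CD27 window. Of the distal regions 27 had their summit in an intron, 11 lay downstream of the gene and 4 upstream. The genes differed widely in the number of sites. CD86 had 12 regions and CD58 had 11, whereas CD70, CD27 and ICAM1 had 3 each. In regions per 10 kb of window, CD58 reached 1.44, CD86 1.40 and CD40 1.27, densities that 1.13%, 1.37% and 2.28% of the 19834 genes with a protein-coding transcript start matched or exceeded. The median over the 10 genes was 1.01 regions per 10 kb and that over all protein-coding genes 0.284.

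**Figure D1:**
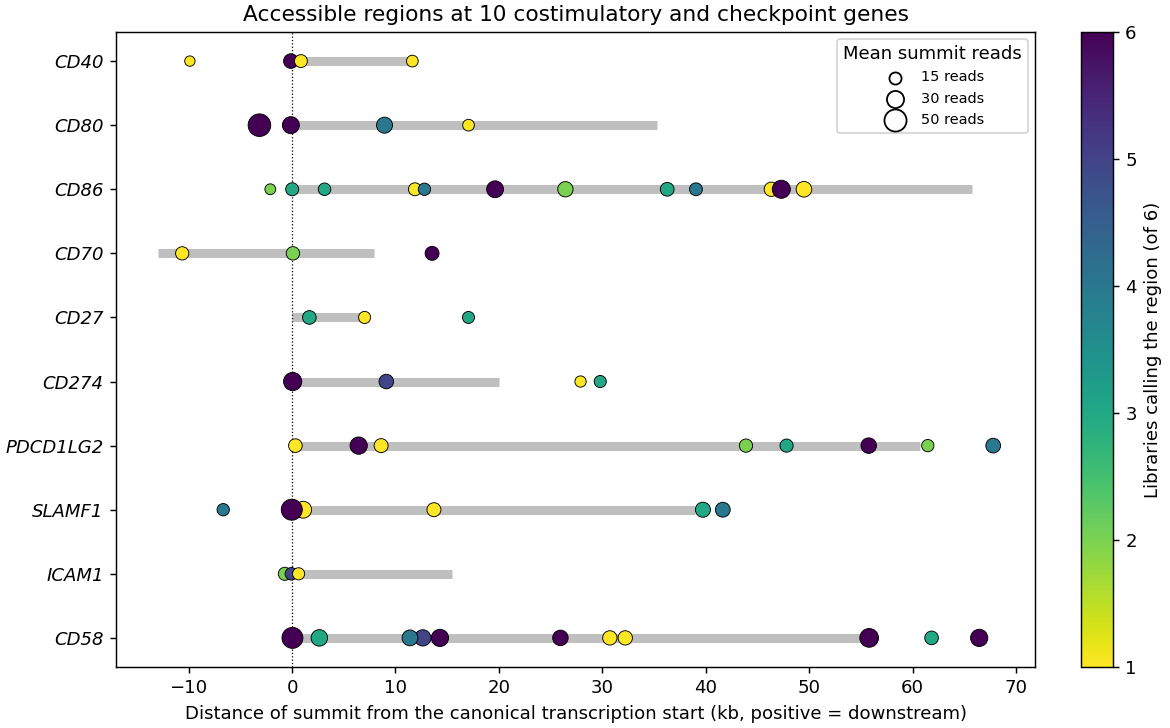
Position of each of the 58 regions relative to the canonical transcription start of its gene in kb, with 1 row per gene, the annotated gene body in grey, point area for mean summit reads and colour for the number of libraries. CD86 and CD58 carried 12 and 11 regions, most of them in introns, and the dark points mark the 15 regions that all 6 libraries called.

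All 6 libraries called 15 of the 58 regions (25.9%), beside 35.5% of all regions, and 24 of 75 with flanks of 25 kb. The difference from the genome-wide share was not tested. At promoters the count was 6 of 15 (40.0%), against 64.2% of the 12910 promoter regions genome-wide, and away from promoters it was 9 of 42 (21.4%), against 27.0% of 43537. Single libraries accounted for 17 of the 58 (29.3%, against 27.4% of all regions), 7 of them in old buffer replicate 1. Regions in all 6 libraries had 16 to 58 summit reads, and the other 43 had 11 to 32, so the ranges overlapped. By library, 36 and 32 of the 58 regions were called under the old buffer, 38 and 23 under the new buffer and 30 and 33 without purification. The lowest number was in new buffer replicate 2, the library with the fewest peaks, where 0.763 of every 1000 peaks lay at these genes against 0.855 to 1.08 elsewhere.

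**Figure D2:**
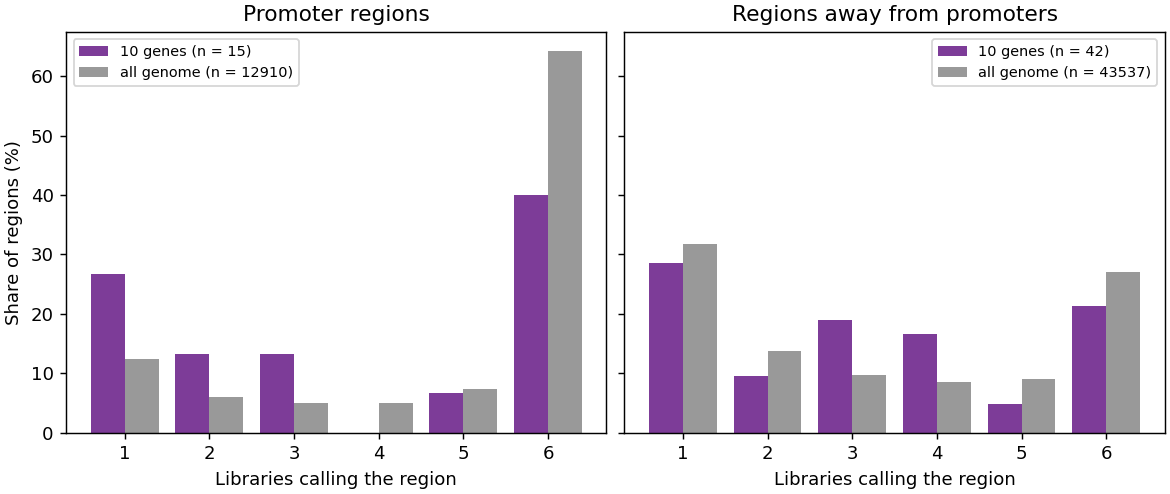
Share of regions (%) by the number of libraries that called them, for the 10 genes (purple) and for the whole genome (grey), at promoters (left) and elsewhere (right). At promoters 40.0% of the 15 regions were called in all 6 libraries, against 64.2% genome-wide.

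A promoter region called in all 6 libraries was found at 5 of the 10 genes, SLAMF1, CD58, CD274, CD80 and CD40, against 45.5% of protein-coding genes. With the rule that peaks of a library must cover at least 50% of a region, the count was 3. The strongest summits averaged 45.0 reads at SLAMF1 and 44.7 at CD58, followed by 33.8 at CD274, 29.5 at CD80, 24.5 at a second CD58 start and 21.7 at CD40. Neighbours in this order overlapped across libraries, but the main CD58 promoter, at 37 to 53 reads, lay above the CD40 promoter, at 16 to 33 reads, in every library. ICAM1 had promoter peaks in every library but at 3 separate places, CD86 in 4 libraries, CD70 in 2, PDCD1LG2 in 1 and CD27 in none. Promoter regions in all 6 libraries had a median of 31.6 summit reads at these genes and 34.7 genome-wide, whereas distal regions in all 6 had 30.3 against 26.2. Over both kinds the median of mean −log10 q was 12.3 against 14.7, and that of the local background 5.26 reads against 3.35. In the 6 promoter regions in all 6 libraries the median observed-to-expected ratio of CpG dinucleotides was 0.47, against 0.884 genome-wide. The ratio ran from 0.178 at the second CD58 start to 0.852 at CD274. Median GC content was 59.5% against 68.7%, with a range from 49.8% at SLAMF1 to 71.1% at the main CD58 promoter. At distal regions in all 6 libraries GC content was 47.3% against 44.8%.

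CD80 and CD86 are the ligands of CD28 and CTLA-4, and their loci looked different from each other. The strongest site of all 58 was an upstream element of CD80 at chr3:119281155-119281963, with its summit 3154 bp from the start and no gene annotated there. Its summit held 55 and 51 reads under the old buffer, 52 and 44 under the new buffer and 58 and 52 without purification. The values of the 3 protocols overlapped, and its mean −log10 q of 23.1 put it within the top 10.2% to 18.7% of peaks in each library. Its central 201 bases are shown because it was the strongest site, on the minus strand, which is that of the gene (chr3:119281515-119281715, hg19), and hold none of the motifs searched for (listed near the end).
CD80 upstream element: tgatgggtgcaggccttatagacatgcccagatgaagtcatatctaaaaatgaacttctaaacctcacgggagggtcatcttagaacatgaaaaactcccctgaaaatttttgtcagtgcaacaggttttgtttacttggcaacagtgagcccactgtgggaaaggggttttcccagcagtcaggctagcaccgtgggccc

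The CD80 promoter itself (chr3:119278384-119278717, summit 116 bp upstream of the start) had 39 and 26 reads under the old buffer, 29 and 27 under the new buffer and 30 and 26 without purification. It was called in all 6 libraries, with old buffer replicate 1 highest, but its mean −log10 q was only 5.7. By summit reads its median position was the top 31.5% of a library, and by q value the top 87.2%. The local background there, the reads around the summit that MACS2 tests against, was 7.40 to 9.54 reads, among the top 2.58% of peaks. Of all regions called in 6 libraries, 0.0349% had as large a gap between the 2 ranks. The other CD80 regions were both intronic, one 8.94 kb downstream of the start called in 4 libraries with 21 to 31 reads and one in a single library.

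**Figure D3:**
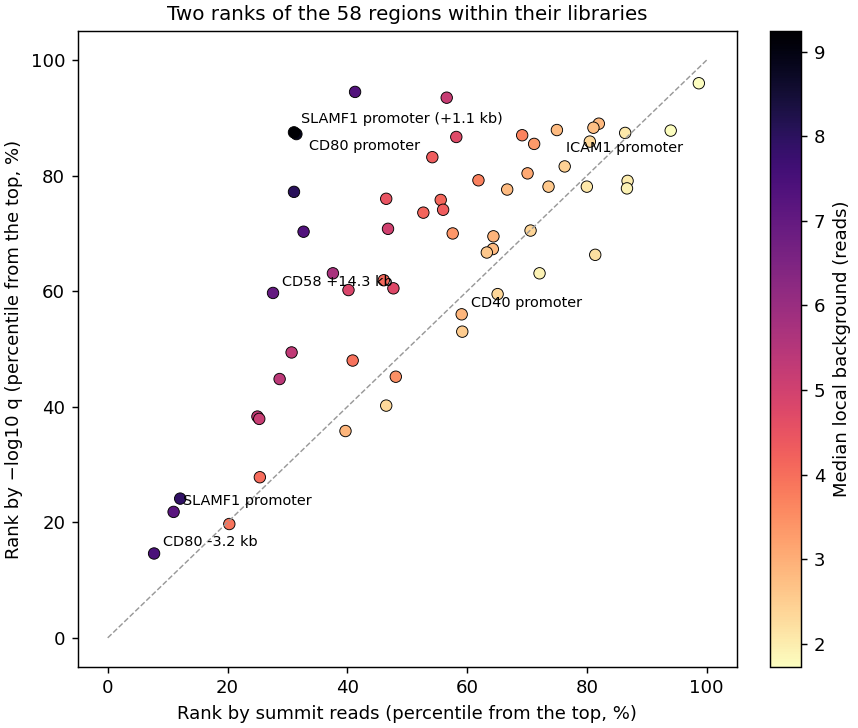
Median percentile from the top (%) of each of the 58 regions within its libraries, by summit reads (x axis) and by −log10 q (y axis), coloured by the median local background in reads. Points above the dashed line ranked lower by q than by reads, among them the CD80 promoter (31.5% and 87.2%) and the CD58 intron region at 14.3 kb (27.6% and 59.7%).

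CD86 had no promoter region in all 6 libraries. At its canonical start (chr3:121774055-121774467, in a UTR exon) a peak was called in 1 library of each protocol, with 14 reads in old buffer replicate 1, 23 in new buffer replicate 1 and 15 in the first unpurified library. Another promoter region lay at a start of a shorter transcript, with its summit in a coding exon 36.3 kb downstream of the canonical start (chr3:121810295-121810842). There the new buffer gave 24 reads in replicate 1, the unpurified libraries 19 and 15, and neither old buffer library a peak. The strongest CD86 site was instead an intron region 47.3 kb downstream of the start (chr3:121821058-121821775). It had 25 and 24 reads under the old buffer, 50 and 29 under the new buffer and 36 and 36 without purification, so both old buffer libraries lay below the other 4. A second intron region 19.6 kb downstream was called in all 6 libraries with 23 to 37 reads. The other 8 CD86 regions were distal, called in 1 to 4 libraries with 12 to 29 reads. The summit of the region at 47.3 kb is shown because it differed most between protocols (chr3:121821408-121821608, hg19, plus strand). Capitals mark a match to the AP-1 letters TGANTCA that overlaps one, on the other strand, to the interferon response element GAAANTGAA.
CD86 intron region: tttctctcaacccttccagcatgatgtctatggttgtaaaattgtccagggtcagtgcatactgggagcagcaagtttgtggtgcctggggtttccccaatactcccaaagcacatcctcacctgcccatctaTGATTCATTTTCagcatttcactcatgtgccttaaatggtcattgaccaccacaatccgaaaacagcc

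CD274 and PDCD1LG2 encode PD-L1 and PD-L2, the ligands of PD-1, and lie next to each other on chromosome 9 in the same orientation. The CD274 promoter (chr9:5450261-5450802, summit 62 bp downstream of the start) had 39 and 29 reads under the old buffer, 30 and 31 under the new buffer and 31 and 43 without purification. Replicates of the old and unpurified protocols differed more than the protocols did, and the mean −log10 q was 13.7. The next CD274 site was an intron region 9.11 kb downstream of the start, with 17 and 25 reads under the old buffer, 21 in new buffer replicate 2, none called in new buffer replicate 1, and 19 and 26 without purification. The remaining CD274 regions lay downstream of the gene, in 1 and 3 libraries with 13 to 16 reads.

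PDCD1LG2 was accessible away from its start. The summits of all 8 PDCD1LG2 regions, and of the 3 CD274 regions outside its promoter, also lay within another annotated gene, ENSG00000286162. The PDCD1LG2 promoter peak (chr9:5510684-5510980) was called in new buffer replicate 1 alone, with 19 reads. By mean −log10 q the strongest PDCD1LG2 site, at 12.3, was an intron region 55.7 kb downstream (chr9:5566009-5566708), near the end of the gene. It had 24 and 26 reads under the old buffer, 27 and 25 under the new buffer and 24 and 21 without purification. These were among the most even values at the 10 genes. An intron region 6.44 kb downstream (chr9:5516698-5517188) had 38 and 30, 28 and 23, and 27 and 37 reads in the same order and was also in all 6 libraries. The other 5 distal PDCD1LG2 regions were in 1 to 4 libraries with 15 to 29 reads. The 200 bases upstream of CD274 (chr9:5450303-5450502, hg19, plus strand) are shown as the promoter of the ligand called in all libraries. They end at its most upstream start, and capitals mark a match to GAAANTGAA on the minus strand at position -168. Genome-wide the motif was in 1.02% of 200-base windows before canonical starts (203 of 19894, the protein-coding genes with a canonical transcript in the annotation).
CD274 upstream: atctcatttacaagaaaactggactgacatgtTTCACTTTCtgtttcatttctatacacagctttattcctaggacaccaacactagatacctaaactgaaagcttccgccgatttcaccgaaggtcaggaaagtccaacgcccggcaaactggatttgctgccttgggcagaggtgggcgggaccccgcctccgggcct

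CD40, the TNF receptor family member on B cells that is bound by CD40 ligand of helper T cells, had its main site at the promoter (chr20:44746538-44747475). Its summit had 19 and 16 reads under the old buffer, 24 and 18 under the new buffer and 33 and 20 without purification. The unpurified libraries exceeded the 2 old buffer values, the first of them alone at the top, and the new buffer libraries overlapped with each. The promoter was within the top 21.8% of peaks in the first unpurified library and the top 71.2% in old buffer replicate 2. Each of the other 3 CD40 regions was called in a single library, with 11, 17 and 14 reads, the second of them also within the promoter window in the first intron.

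CD70, the ligand, and CD27, its receptor, had few calls. The CD70 promoter peak (chr19:6590963-6591370) was called in old buffer replicate 1 with 15 reads and new buffer replicate 1 with 22. Its strongest site was a region downstream of the gene, 13.5 kb from the start (chr19:6577297-6578147), with 29 and 18 reads under the old buffer, 19 and 18 under the new buffer and 16 and 19 without purification. Apart from the first of these values all lay within 16 to 19 reads. At CD27 no promoter peak was called. The highest mean −log10 q among its distal regions, 6.4, was at a region 17.1 kb downstream of the start within TAPBPL (chr12:6570864-6571437), called with 14 reads in old buffer replicate 1, 16 in new buffer replicate 1 and 14 in the second unpurified library. An intron region 1.67 kb downstream (chr12:6555445-6556234), which also lies in the antisense gene CD27-AS1, had 22 and 19 reads under the new buffer and 16 in the second unpurified library, with no call by the old buffer. The last CD27 window region was at the TAPBPL promoter, in 1 library with 15 reads. The upstream bases of CD70 (chr19:6591162-6591361, hg19, minus strand) are shown as a promoter called in few libraries. Capitals mark overlapping matches to the kappaB letters GGGANTTTC or GGAANTTCC at positions -57 and -56, which NF-kappaB proteins can bind.
CD70 upstream: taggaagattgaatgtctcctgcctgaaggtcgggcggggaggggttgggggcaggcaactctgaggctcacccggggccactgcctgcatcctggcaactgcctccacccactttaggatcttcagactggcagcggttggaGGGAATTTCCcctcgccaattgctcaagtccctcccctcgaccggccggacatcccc

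SLAMF1 is a receptor that binds itself on a neighbouring cell. Its promoter (chr1:160616435-160617339, summit 26 bp upstream of the start) was the strongest of the 15 promoter regions by mean −log10 q, at 18.4, with 48 and 34 reads under the old buffer, 55 and 36 under the new buffer and 51 and 46 without purification. Replicate 1 of each protocol was the higher. It lay within the top 14.8% to 29.9% of peaks. A second promoter region, 1076 bp downstream of the canonical start, was called in new buffer replicate 1 alone with 29 reads over a local background of 9.24. The best distal SLAMF1 site lay 41.6 kb from the start and beyond the end of the gene, closer to a CD84 start, at 25887 bp. It had 22 reads in both old buffer libraries, 23 in new buffer replicate 1 and 23 in the first unpurified library. The other 3 distal SLAMF1 regions were in 1 to 4 libraries with 13 to 26 reads. The upstream bases of SLAMF1 (chr1:160616835-160617034, hg19, minus strand) are shown as those of the strongest promoter, and none of the motifs searched for is in them.
SLAMF1 upstream: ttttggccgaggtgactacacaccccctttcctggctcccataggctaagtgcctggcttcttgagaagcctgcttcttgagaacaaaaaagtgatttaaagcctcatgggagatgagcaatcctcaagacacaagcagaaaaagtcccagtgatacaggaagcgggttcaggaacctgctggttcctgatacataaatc

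ICAM1, the ligand of the integrin LFA-1, had only promoter regions, all weak and all also within another annotated gene, LIMASI. The region 70 bp upstream of the start (chr19:10381498-10382018) had 13 and 13 reads under the old buffer, 19 and 15 under the new buffer, no call in the first unpurified library and 20 reads in the second. A region 697 bp upstream was called by the unpurified libraries alone, with 16 and 19 reads, and a region 633 bp downstream by old buffer replicate 1 with 15. Mean −log10 q was 4.9 to 5.0 at the 3 regions. Over libraries the ICAM1 promoter averaged 16.3 summit reads, and 98.5% of the promoters with a peak in all 6 libraries were as high or higher. The upstream bases of ICAM1 (chr19:10381569-10381768, hg19, plus strand) are shown beside this weak peak, with capitals for a match to GGAANTTCC at position -159. A kappaB match of either form was present in 1.42% of windows before canonical starts genome-wide (283 of 19894). Among the members, of which CD27 was not searched, it was upstream of ICAM1 and CD70.
ICAM1 upstream: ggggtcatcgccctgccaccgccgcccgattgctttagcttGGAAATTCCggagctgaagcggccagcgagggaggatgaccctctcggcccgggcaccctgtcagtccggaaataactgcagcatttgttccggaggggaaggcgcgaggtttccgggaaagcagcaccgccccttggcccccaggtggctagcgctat

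CD58, the ligand of CD2, had the most regions in all libraries, 5 of its 11. The main promoter (chr1:117112965-117113943, summit 38 bp downstream of the start) had 46 and 37 reads under the old buffer, 44 and 39 under the new buffer and 49 and 53 without purification. Both unpurified libraries lay above the other 4, by 3 reads at the closest. A second promoter region lay near a start of a shorter transcript, with its summit 25.9 kb downstream of the canonical start (chr1:117087287-117087870). It had 33 and 23, 19 and 21, and 26 and 25 reads in the same order, with both new buffer libraries lowest.

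The highest CD58 site by mean −log10 q, at 19.6, was in the last part of the gene, 55.8 kb from the start (chr1:117057564-117058385). It had 37 and 34 reads under the old buffer, 35 and 27 under the new buffer and 50 and 32 without purification. The first unpurified library stood alone at the top while the second lay within the range of the others. Another 2 regions were in all 6 libraries, one 14.3 kb downstream with 23 to 39 reads and one past the end of the gene with 19 to 34 reads. The former had a median local background of 7.01 reads and ranked in the top 27.6% by reads and the top 59.7% by q. The other 6 CD58 regions were in 1 to 5 libraries with 17 to 32 reads. The region past the end lay 9688 bp from the gene, close to the 10 kb limit of the windows, and the nearest CD27 region inside the limit 9979 bp from its gene, with means of 30.3 and 14.7 reads. Just outside were a CD80 region at 10542 bp, in 2 libraries with a mean of 13.5 reads, and the PLGRKT promoter at 11290 bp from CD274, in 5 libraries with a mean of 28.0 reads.

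**Figure D4:**
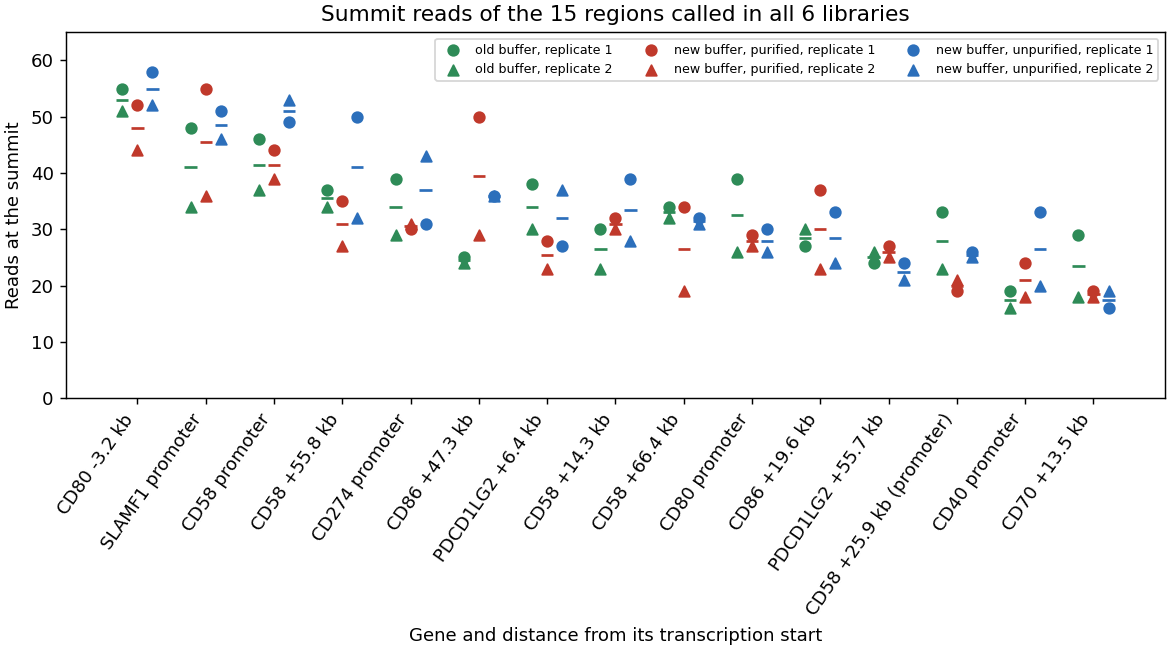
Reads at the summit in each library for the 15 regions called in all 6 libraries, ordered by mean, with colour for the protocol, circles for replicate 1, triangles for replicate 2 and a bar at the mean of the 2 replicates. Values ran from 16 reads at the CD70 downstream region and the CD40 promoter to 58 at the CD80 upstream element, and most groups overlapped.

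Summit reads were compared between protocols with limma over all 20064 regions called in all 6 libraries. Each library was centred on its median, and Benjamini-Hochberg adjustment was used. The spread that limma uses is estimated largely over all regions, so the standard errors and intervals below are not the replicate spread of a single region. At an adjusted p of 0.05, 9 regions differed between new and old buffer (0.0449%), 4 between the unpurified and old buffer libraries (0.0199%) and 0 between the unpurified and purified new buffer libraries (0.0%). None of the 15 regions at the 10 genes was among them in any comparison, and at an unadjusted p of 0.05 limma passed 1, 1 and 0 of the 15, against 1722, 1693 and 865 of all regions tested. The 1 region was the CD86 intron region at 47.3 kb in both cases. Its log2 difference was 0.66 ± 0.23 (SE, n = 2 per protocol, 95% confidence interval 0.21 to 1.11) for new minus old buffer, with limma adjusted p = 0.335 and a range over the alternatives of 0.321 to 0.999. Unpurified minus old buffer gave 0.48 ± 0.23 (SE, interval 0.03 to 0.93, limma adjusted p = 0.566, range 0.561 to 0.916). Without new buffer replicate 1 the first difference was 0.43, without new buffer replicate 2 it was 0.90, and on the deposited fold enrichment the 2 differences were 0.42 and 0.27.

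The strongest site, the CD80 upstream element, gave -0.12 ± 0.17 (SE, interval -0.45 to 0.21) for new minus old buffer and -0.02 ± 0.17 (interval -0.35 to 0.30) for unpurified minus old buffer. These differences were -0.19 and -0.12 without old buffer replicate 1, and -0.07 and 0.02 without old buffer replicate 2. The CD40 promoter gave 0.48 ± 0.28 (SE, interval -0.07 to 1.04) for unpurified minus old buffer, but 0.09 without the first unpurified library, 0.77 without the second and 0.27 on the deposited fold enrichment. The CD70 downstream region gave -0.47 ± 0.28 (SE, interval -1.02 to 0.09) in the same comparison, but -0.28 without old buffer replicate 1 and -0.71 without old buffer replicate 2. On the deposited fold enrichment the CD70 difference was also -0.47, with an interval of -0.9 to -0.05 that did not include 0 (limma adjusted p = 0.708). None of the 15 passed the threshold between unpurified and purified libraries. The differences farthest from 0 on either side were -0.31 ± 0.26 (SE, interval -0.84 to 0.21) at the PDCD1LG2 region at 55.7 kb and 0.28 ± 0.21 (SE, interval -0.15 to 0.70, limma adjusted p = 1, range 0.954 to 1) at the CD58 region at 55.8 kb. The latter was -0.05 without the first unpurified library, 0.52 without the second and 0.18 on the deposited fold enrichment. Median log2 differences over the 15 regions were -0.114, -0.024 and 0.096 in the 3 comparisons, beside 0.031, 0.044 and 0.014 over all regions. Uncentred, the medians over the 15 regions were -0.141, 0.052 and 0.199 and over all regions 0.004, 0.12 and 0.117. Without the first unpurified library, where 17 regions at these genes were tested, their medians were 0.011, -0.011 and -0.05, and without new buffer replicate 1, with 16 regions, -0.015, -0.019 and 0.015. With 2 libraries per protocol the intervals were wide, and differences of any size within them remain possible. An exact permutation test of 2 libraries against 2 cannot give a p below 0.33. The numbers of regions passing genome-wide depended on single libraries. The 9 regions were 0 without old buffer replicate 1, 1 without old buffer replicate 2 and 3 without the first unpurified library, the 4 were 0 without old buffer replicate 1 or either unpurified library and 1 without old buffer replicate 2, and the 0 were 4 without new buffer replicate 1.

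**Figure D5:**
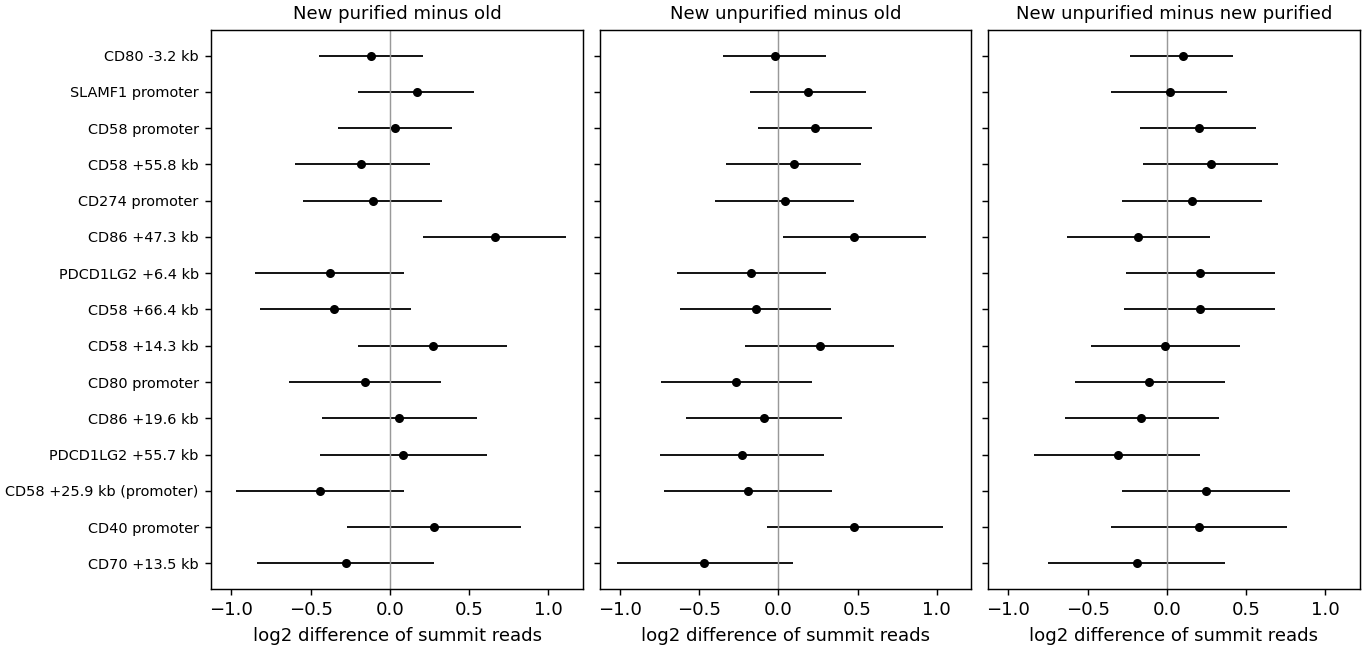
Difference in log2 summit reads between protocols for the 15 regions called in all 6 libraries, with 95% confidence intervals from limma (n = 2 libraries per protocol). The intervals include 0 except at the CD86 region at 47.3 kb against the old buffer (0.66 and 0.48).

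Calls that separated the protocols were few. A region called in both libraries of one protocol and neither of another occurred once for new against old buffer (the CD27 intron region, 1 of 58, against 1.66% of all regions) and once for old against new buffer (a region downstream of CD274, against 2.91%). Unpurified against old buffer gave 3, at the CD86 promoter region at 36.3 kb, downstream of SLAMF1 and 697 bp upstream of ICAM1, where 2.18% of all regions did so. Old buffer against unpurified gave another 3, in introns of CD86 and PDCD1LG2 and downstream of CD58, against 2.57%. Unpurified against purified new buffer gave the same ICAM1 region (2.39% of all regions), and the reverse the same CD86 intron region (1.56%). These counts were not tested.

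Calls at related genes are given for comparison. Of 22 other ligands and adhesion molecules of presenting cells, 5 had a promoter peak in all 6 libraries, 10 in 1 to 5 and 7 in none, beside 45.9% and 39.4% of all protein-coding genes in all and in none. The highest of the 5 were CD47, an anti-phagocytic signal, with a mean of 49.0 summit reads, TNFSF9, which encodes 4-1BB ligand, with 29.2, and TNFRSF14, the HVEM receptor, with 27.3. ICAM2 was lowest at 18.0 reads and LY9, a SLAM family relative, had 21.0. None was called at CD276, CD84, PVR, SLAMF6, TNFSF18, VSIR and VTCN1. Of 16 partner molecules on T cells, 3 had a promoter peak in all 6 libraries, HAVCR2, which encodes TIM-3, at a mean of 68.0 reads, TIGIT at 43.3 and CD226 at 42.8. CD96 was called in 5 libraries and SH2D1A in 1, and 11 were called in none, among them CD28, CTLA4, PDCD1, CD40LG and CD2, the partners of CD80, CD86, CD274, PDCD1LG2, CD40 and CD58. HAVCR2 thus had a higher promoter mean than any of the 10 genes.

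Motif letters were counted within 100 bp of each summit, on both strands, as a description. In the 15 regions called in all 6 libraries, TGANTCA (AP-1) was in 3, against 13.8% of all such regions. GGGANTTTC or GGAANTTCC (kappaB) was in 1 (4.13% of all), TCCCNNGGG (EBF) in 1 (5.58%), GAAANTGAA in 1 (4.03%) and GGGGCGGGG (GC box) in 1 (11.6%). The letters of PU.1 (GAGGAAGT, 2.80%), octamer (ATGCAAAT, 2.03%), RUNX (TGTGGTT, 10.1%) and CTCF (AGGGGGCGC, 1.23%) were in none. The AP-1 matches were at the CD86 region at 47.3 kb and at 2 CD58 regions, the EBF and GC box matches at the CD40 promoter, and the kappaB match at the CD58 region past the end of the gene. The 200 bases upstream were searched at every member except CD27. There EBF letters were present at CD40 and CD58 (7.36% of windows before canonical starts genome-wide) and the GC box at CD40 (22.5%).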

How the data were processed

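The 6 bulk libraries of fixed GM12878 cells were grouped by their labels. The authors trimmed reads, mapped them to hg19 with Bowtie2 (version 2.1.0 in the submitters' processing notes), and removed duplicates. MACS2, with a q value threshold of 0.01, called the peaks. The MACS2 version is not given in the sources used here. Their methods merge samples of a condition first, but the lists are per library. Each deposited peak has a score, a fold enrichment at the summit (a ratio over local background), and a −log10 p and −log10 q. They hold no counts. Summit reads and local background were solved from fold enrichment and −log10 p, which matched within 0.001 for 100% of peaks. Total depth is unknown, and few summit reads limit the precision.

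Overlapping or adjoining peaks of the 6 libraries were merged into regions. A library called a region with at least 1 bp of peak in it. Genes were taken from GENCODE version 44 on GRCh37, the same build as hg19, and 0 regions ran past a chromosome end. Upstream of the members other than CD27, the 200 bp before the most upstream start near the canonical one were searched for motifs. At summits 201 bp windows were used. Genome-wide upstream shares used the 200 bp before the canonical start itself, so the windows can differ in position. log2 summit reads, centred on each library's median, were compared with limma 3.58.1 (R 4.3.3, with trend, 1 fit for the 3 groups, threshold 0.05 after Benjamini-Hochberg adjustment). Other steps used Python 3.11.15, pandas 2.3.3 and SciPy 1.17.1. Scripts were tested on simulated data. Alternatives were a −log10 q of at least 5, equal list lengths, other merging, overlap, flank and promoter rules, other scaling, a filter on weak regions, a replicate block and leaving out each library.

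The members, gene lists, motif letters and the rule for named items were chosen with earlier results of these data known. All 10 members were named, with every promoter region and the distal region of the highest mean −log10 q, and up to 3 of the highest and lowest genes of each other list. The CD27 intron region, the second distal regions, the marker genes and the genes without peaks were named after their values were seen.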

Additional observations from a re-analysis of the deposited data

How the results depend on the processing

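The 58 regions numbered 42 to 75 under the alternatives, and 51 to 58 with 1 library left out. Regions in all libraries numbered 24 with flanks of 25 kb in place of 15, 10 when peaks had to cover at least 50% of a region, and 14 to 17 with 1 library left out. Genes with such a promoter region numbered 3 in place of 5 under the same rule on cover, and 4 to 6 with 1 library left out. In limma, new minus old buffer gave 9 regions, but 0 without centring, 5 with quantile normalization, 1 on the deposited fold enrichment and 0 to 11 with 1 library left out. Unpurified minus old buffer gave 4, but 0 without centring, 1 on fold enrichment and 0 to 4 with 1 library left out, and unpurified minus purified new buffer 0, with 0 to 4. The causes were not tested. Only regions called in every library of a fit were tested, 15 of the 58 at these genes, or 12 with the filter on weak regions. None of these passed in any comparison under the alternatives that kept all 6 libraries. The other regions of the 58 could not be tested. The CD58 region at 55.8 kb changed from 0.28 to -0.05 without the first unpurified library (-0.05 to 0.52 with 1 library left out). Where 1 library was left out of a protocol, the lone sample was assumed to vary like the other groups.

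With a replicate block the 3 comparisons gave 10, 6 and 0 regions in place of 9, 4 and 0. Replicates of the same number did not deviate together in centred summit reads (correlations of -0.004, -0.003 and 0.015). Centring removes any shift of a whole library, so these values cannot show whether such replicates shared a batch. None of the 15 regions tested at the 10 genes passed with the block. Summit reads of 11 to 58 and 2 libraries per protocol limit what could be detected.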
